A study of Mus musculus with 4 samples.

Results

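Cp, Hp, Hamp and Steap4 are 4 genes of hepatic iron and copper handling and of the acute phase response, and they were examined in fetal livers of Stk40 KO and WT mouse embryos at E14.5. They were taken as every probe set to which the authors' deposited table of 2-fold changes gives 1 of these symbols and no other, which yielded 8 probe sets, 5 of them for Cp, among 1418 probe sets and 1345 symbols with such a name. The 8 were thus chosen by their ratio between the genotypes on these same arrays, and the differences given for them describe what was selected. No p-value is printed for them, and no support is drawn from the counts of them called at an adjusted p threshold. Probe sets of the 4 genes without a 2-fold change have no name in the table and were not analysed here. Stk40 KO embryos carried the germline deletion of Stk40, a serine/threonine kinase, and came with their WT counterparts from matings of Stk40 heterozygotes in the C57BL/6J background. Each genotype was represented by 2 arrays, and each array carried total RNA pooled from 6 livers of 1 genotype. The measurement was taken on whole fetal liver, which contains hepatoblasts, macrophages, stromal cells and a majority of developing blood cells, so a gene with more RNA per cell and a gene whose cells are more frequent cannot be told apart.

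Hepatocytes control the iron and copper of the plasma through secreted proteins. Hepcidin, the product of Hamp, binds the iron exporter ferroportin on macrophages and gut cells and causes its degradation, and its transcription is driven by bone morphogenetic protein (BMP) and SMAD signals of iron status and by interleukin-6 through STAT3. Ceruloplasmin, the product of Cp, carries most copper of the plasma and oxidizes ferrous iron so that transferrin can take it up. Haptoglobin, the product of Hp, captures haemoglobin released from broken red cells. Steap4 is a membrane metalloreductase of iron and copper that inflammatory cytokines such as TNF-α induce. Ceruloplasmin, haptoglobin and hepcidin also belong to the acute phase proteins, whose output from the liver rises in inflammation.

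The array values were linear intensities in arbitrary units, in which a negative value means that mismatch probes were brighter than matched probes. A noise level of 143 was taken from the negative values, as their 95th percentile in size, and 24.1% to 28.5% of the probe sets of an array exceeded it. The 2 Stk40 KO arrays were brighter than the 2 WT arrays, by a median of 0.19 on the log2 scale over 12332 probe sets, which became -0.04 after scaling to equal 75th percentiles. Those percentiles were 267 and 263 in Stk40 KO, against 206 in WT replicate 1 and 247 in WT replicate 2, so WT replicate 1 was the dimmest array. The named probe set of Stk40 gave -98.9 and -110.8 on the Stk40 KO arrays and 59.9 and 52.2 on the WT arrays, under the noise level on every array, and its position relative to the deletion was not examined here.

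All 5 named probe sets of Cp were higher on both Stk40 KO arrays than on either WT array. As deposited, the same held for 44.7% of the 12332 probe sets bright enough to be tested, and after scaling for 16.1%. By probe set 1417494_a_at, Cp read 1154 and 1425 in the Stk40 KO pools, against 293 and 298 in the WT pools. The means were 1290 ± 191 in Stk40 KO and 296 ± 3.54 in WT (SD, n = 2 each), a ratio of 4.36, or of 3.70 after scaling. The lower Stk40 KO array lay 3.87-fold above the higher WT array as deposited and 3.03-fold after scaling, which set the WT arrays further apart, at 349 and 295. Probe set 1417495_x_at, whose suffix marks probes that may also bind other transcripts, gave 833 and 997 in Stk40 KO, against 230 and 203 in WT. Probe set 1448734_at gave 550 and 668 in Stk40 KO, against 139.5 and 139 in WT, the WT values lying just under the noise level. The other 2 lay on the WT arrays far under the noise level, so that their fold has only a lower bound. That bound is given by the mean log2 value of the 2 Stk40 KO arrays, not on each of them. Probe set 1455393_at gave 294 and 437 in Stk40 KO against 57.0 and 61.1 in WT, which is at least 2.32-fold after scaling. Probe set 1417496_at gave 222 and 239 in Stk40 KO against 63.4 and 57.5 in WT, at least 1.49-fold. Over the 5 probe sets the ratio of the means as deposited ranged from 3.81 to 6.19 with a median of 4.36, and after scaling from 3.22 to 5.27 with a median of 3.70. These 5 readings share 1 gene and the same 4 RNA pools, so they repeat the hybridization and not the embryos.

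Haptoglobin RNA also lay higher on both Stk40 KO arrays than on either WT array. Hp (1448881_at) read 594 and 879 in the Stk40 KO pools, against 208 and 279.8 in the WT pools. The means were 736 ± 201 in Stk40 KO and 244 ± 50.8 in WT (SD, n = 2 each). All 4 values exceeded the noise level, and the groups did not overlap, with Stk40 KO higher, as for 44.7% of the tested probe sets as deposited. The ratio of the means was 3.02, or 2.60 after scaling, and the lower Stk40 KO array lay 2.12-fold above the higher WT array. Replicate 2 lay above replicate 1 in both Stk40 KO and WT.

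**Figure D1:**
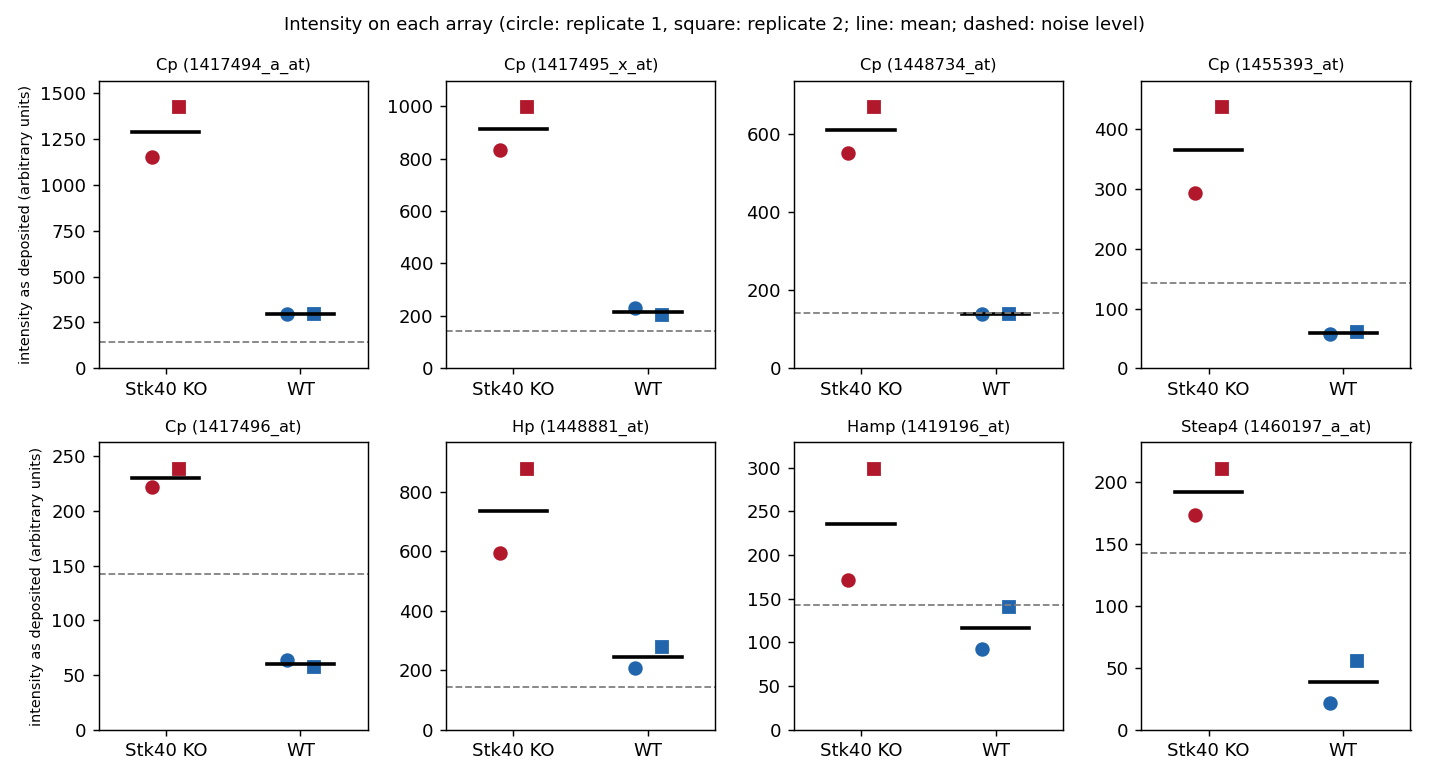
Intensity as deposited (vertical axis, arbitrary units, a separate scale from 0 in each panel) of the 8 probe sets on the 2 Stk40 KO and the 2 WT arrays, with the mean of each genotype as a line and the noise level of 143 dashed. In every panel both Stk40 KO arrays lie above both WT arrays, as they do for 44.7% of the 12332 probe sets bright enough to be tested. The narrowest gap is that of Hamp, at 172 against 141.

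Hepcidin RNA was the least separated of the 4. Hamp (1419196_at) read 172 and 299 in the Stk40 KO pools, against 91.9 and 141 in the WT pools, with means of 235 ± 90.2 in Stk40 KO and 116 ± 34.5 in WT (SD, n = 2 each). Both WT values were under the noise level, and Stk40 KO replicate 1 exceeded WT replicate 2 by a factor of 1.22 as deposited and of 1.13 after scaling. The ratio of the means was 2.02 as deposited, just past the 2-fold rule that chose the gene, and 1.75 after scaling. For comparison, the unnamed probe set 1460329_at lay just outside that rule, with 217 and 201 in Stk40 KO, against 90.6 and 119 in WT and a ratio of 1.996. Against the noise level the scaled difference of Hamp was at least 1.47-fold by the mean log2 value of the 2 Stk40 KO arrays, not on each of them. It rested on Stk40 KO replicate 2, since without that array the log2 fold was 0.14, and without Stk40 KO replicate 1 it was 0.96.

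The mouse has a neighbouring hepcidin gene, Hamp2, whose product is not known to act on iron as hepcidin does. It has no name in the deposited table and no value here, and whether probe set 1419196_at also reads it was not tested. The 250 bases before the start sites of both genes, taken from RefSeq (GRCm38.p6), are shown because the promoter of Hamp is the end point of both signals that drive it. The capitals mark a match to the BMP-responsive core GGCGCC or to the STAT element TTCNNNGAA.
Hamp (chr7:30944030-30944279, minus strand): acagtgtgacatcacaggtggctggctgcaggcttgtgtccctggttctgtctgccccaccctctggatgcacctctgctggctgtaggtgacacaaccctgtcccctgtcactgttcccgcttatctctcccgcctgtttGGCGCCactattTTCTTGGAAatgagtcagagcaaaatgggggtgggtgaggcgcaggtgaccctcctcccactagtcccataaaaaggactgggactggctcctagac
Hamp2 (chr7:30924182-30924431, minus strand): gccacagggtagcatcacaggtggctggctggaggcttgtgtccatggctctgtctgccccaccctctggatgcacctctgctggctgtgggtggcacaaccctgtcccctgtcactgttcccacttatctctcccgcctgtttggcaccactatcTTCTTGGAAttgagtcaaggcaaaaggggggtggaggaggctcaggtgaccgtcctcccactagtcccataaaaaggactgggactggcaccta
The 2 windows of 300 bases, which reach 50 bases past the start sites, aligned over 297 bases with 92.9% identity. Hamp held the core GGCGCC at position -109 from its start site. Hamp2 had GGCACC at the aligned place, the substitution G4A when positions are counted from 1 at the first base of the core and the base of Hamp is given first. Both held the STAT match TTCTTGGAA, at position -97 in Hamp and at -94 in Hamp2. Among 32851 promoter windows of the same length, 11.9% held GGCGCC and 8.30% held TTCNNNGAA, searched on both strands. Such matches describe the letters of the window and do not show that a factor was bound in these livers.

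Steap4 (1460197_a_at) read 174 and 211 in the Stk40 KO pools, against 21.3 and 55.5 in the WT pools. The means were 193 ± 26.4 in Stk40 KO and 38.4 ± 24.2 in WT (SD, n = 2 each), so that the gene exceeded the noise level on both Stk40 KO arrays and on neither WT array. The ratio of the means, 5.02 as deposited and 4.43 after scaling, divides by values that lie within the noise. Against the noise level the difference was at least 1.24-fold after scaling and at least 1.35-fold as deposited. These bounds use the mean log2 value of the 2 Stk40 KO arrays and do not hold on each of them. Without Stk40 KO replicate 2 the scaled log2 fold was 0.16.

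The window upstream of Steap4 (RefSeq, GRCm38.p6) is printed because this gene is a known target of cytokines. Capitals mark matches, in 5′ to 3′ order, to an overlapping C/EBP element TTNNGNAA and NF-κB element GGGNNTTCC (read on the opposite strand), to the STAT element TTCNNNGAA and to a further C/EBP element.
Steap4 (chr5:7960222-7960471, plus strand): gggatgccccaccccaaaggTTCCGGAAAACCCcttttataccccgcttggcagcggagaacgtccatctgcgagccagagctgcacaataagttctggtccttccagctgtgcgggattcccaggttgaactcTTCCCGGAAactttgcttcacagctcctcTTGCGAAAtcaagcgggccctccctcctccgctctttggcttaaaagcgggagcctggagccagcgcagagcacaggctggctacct
The STAT match TTCCCGGAA began at position -116, the C/EBP matches at -230 and -87 and the NF-κB match at -226. Of all windows, 40.7% held the C/EBP element and 5.82% the NF-κB element, so that a C/EBP match is common. The STAT element was thus held by the windows of both Hamp and Steap4. The 2 windows of Cp held a C/EBP match each, at -206 and at -70, and no match to the other motifs in these letters. ACGTG, the core bound by hypoxia-inducible factors, was found in 19.6% of all windows and in none of those of Cp, Hamp and Steap4. No window of Hp was analysed here.

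Set against the arrays as a whole, the 8 probe sets showed the following. By the fold rule of the study's methods, 8 of 8 were at least 2-fold higher in Stk40 KO on the intensities as deposited, where 3.79% of 32791 probe sets were, and 7 of 8 after scaling, where 2.48% were, Hamp being the exception. Both Stk40 KO arrays lay above both WT arrays for 8 of 8, before and after scaling. The same held for 44.7% of the 12332 probe sets bright enough to be tested as deposited and for 16.1% after scaling. In the fit by limma across those 12332 probe sets after scaling, 6 of 8 were called higher at an adjusted p under 0.05, namely the 5 of Cp and that of Hp, where 1.25% of the probe sets were called higher. On the intensities as deposited 8 of 8 were called, where 2.25% of 12600 were. Of the 6 limma calls after scaling, 5 come from the same gene, Cp, on the same RNA pools. The 8 of 8 by the fold rule as deposited restates how they were chosen, and the other counts use the same arrays and the same contrast, so they are given as a description and nothing is read from them.

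**Figure D2:**
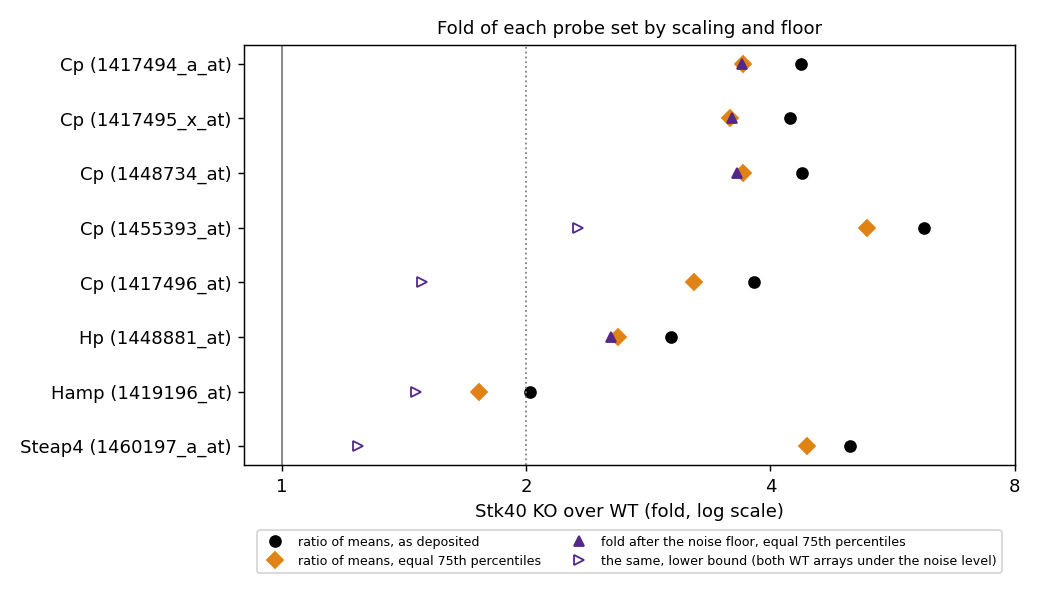
Fold of Stk40 KO over WT (horizontal axis, log scale) for the 8 probe sets, as the ratio of the means as deposited or after scaling to equal 75th percentiles, and as the scaled fold once values under the noise level are raised to it, with lower bounds as open triangles. The 3 measures lie between 3.56 and 4.37 for the 3 Cp probe sets at the top, and between 1.24 and 5.02 for Steap4.

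The 4 genes differed in how far the bound and the ratio lay apart. For Cp by 1417494_a_at and for Hp, the scaled fold with the noise floor was 3.69 and 2.55, close to the ratios of the means. For Hamp and Steap4 the bounds of 1.47 and 1.24 lay well under the ratios, because their WT values could not be told from noise. Their order by ratio, with Steap4 first, is therefore not an order of measured changes.

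The 2 pools of a genotype can also be set side by side, as a description, since both pools enter the means by which the genes were chosen and a high value in 1 Stk40 KO pool helps a gene to be chosen. After scaling, Stk40 KO replicate 2 exceeded Stk40 KO replicate 1 in 8 of 8 probe sets, and in 67.4% of the tested probe sets. The ratio of the 2 pools ran from 1.09 for Cp by 1417496_at to 1.77 for Hamp, and it was 1.25 for Cp by 1417494_a_at, 1.50 for Hp and 1.23 for Steap4. Between the WT pools replicate 2 was the higher in 3 of 8, and in 65.1% of the tested probe sets. It was lower for the 5 probe sets of Cp, with ratios from 0.73 to 0.89, and higher for Hp (1.12), Hamp (1.27) and Steap4 (2.17), the values of the last 2 lying under the noise level. The 5 probe sets of Cp count here as 1 gene.

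**Figure D3:**
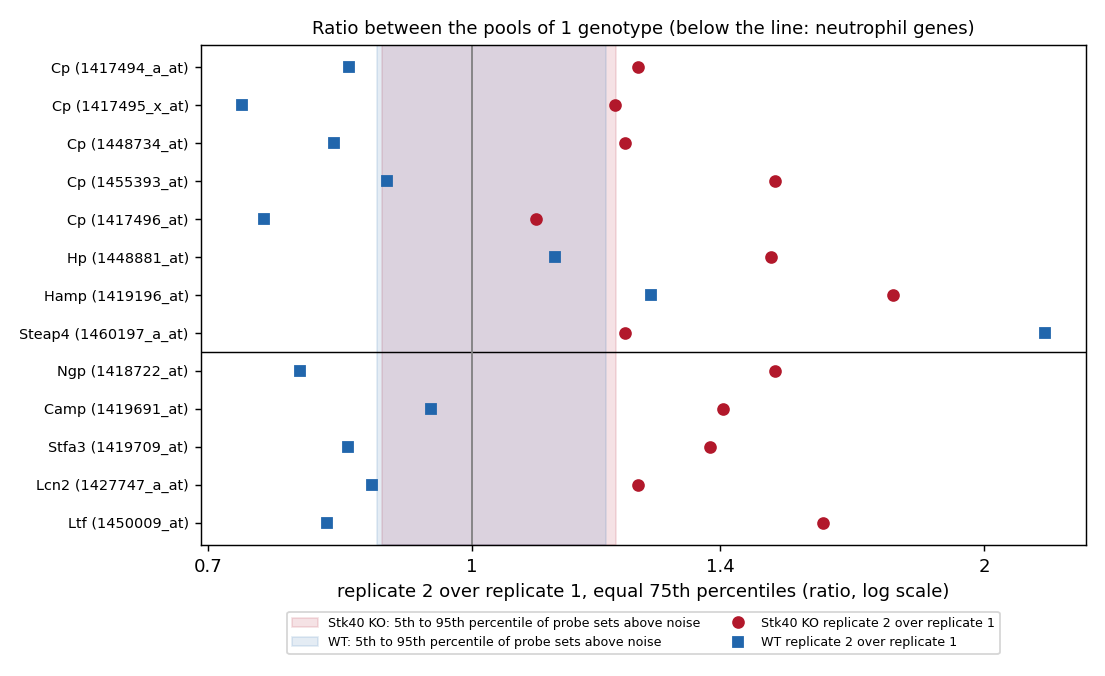
Ratio of replicate 2 over replicate 1 within Stk40 KO and within WT (horizontal axis, log scale, equal 75th percentiles) for the 8 probe sets and, below the line, for 5 neutrophil genes, with the 5th to 95th percentile of probe sets above the noise level shaded. The Stk40 KO ratios lie between 1.09 and 1.77 for the 8 probe sets and between 1.25 and 1.61 for the neutrophil genes. The WT ratios lie below 1 for the neutrophil genes (0.79 to 0.95) and for the 5 probe sets of Cp (0.73 to 0.89). They lie above 1 for Hp, Hamp and Steap4, with the WT values of Hamp and Steap4 under the noise level.

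The other genes of the same pathways were looked up in 6 lists. Of their 120 genes apart from the 4, the deposited table names 15, of which 14 were up and 1 was down by the fold rule, beside 71.8% of all named probe sets that were up. A gene is named there through its 2-fold change, so these counts do not describe the lists as wholes, and 13 of the 15 lay under the noise level on every array. The 2 brighter ones encode proteins that withhold iron from bacteria, and both were called higher by limma after scaling, in the contrast through which they are named. Lcn2, the siderophore-binding lipocalin of neutrophils and the acute phase, had 1011 and 1249 in Stk40 KO, against 230.5 and 242 in WT, a ratio of 4.79. Ltf, the lactoferrin of neutrophil granules, had 410 and 650 in Stk40 KO, against 183 and 181 in WT, a ratio of 2.91. Both genes had Stk40 KO arrays far above WT arrays, as Cp and Hp did.

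Among acute phase proteins, 8 of 26 genes other than the members are named, all of them up. Il1rn, the antagonist of the interleukin-1 receptor, had 138 and 119 in Stk40 KO, against 31.8 and 42.8 in WT. C4b, a complement component, had 63.2 and 105 in Stk40 KO, against -29.7 and -66.3 in WT. Both lay under the noise level on every array. Saa1, Saa2, Saa4 and Orm1, which encode serum amyloid A proteins and orosomucoid, stayed at or under 50.7 on every array. The fibrinogen genes Fga, Fgb and Fgg, Hpx for haemopexin and C3 are not named in the table.

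Of the regulators, few were named and none exceeded the noise level. In the list of interleukin-6 and interleukin-1 signalling, 2 of 24 genes are named, Il1rn and Osmr, the receptor of oncostatin M, which had 16.5 and 38.7 in Stk40 KO, against 6.82 and 14.6 in WT. In the list of hepcidin regulation 3 of 27 genes are named, Hamp included. Bmpr1a, a BMP receptor, had 9.18 and 20.6 in Stk40 KO, against 0.73 and 13.2 in WT, and Neo1, which anchors the BMP co-receptor hemojuvelin, had 2.73 and 11.5 in Stk40 KO, against 2.45 and 0.18 in WT. The first of these overlapped between genotypes, and both lay in the noise. Bmp6, Smad7, Id1, Tfr2 and Tmprss6 have no name in the table. Of iron transport and storage 6 of 29 genes are named, with Cp, Steap4, Lcn2 and Ltf among them. Cybrd1, a ferric reductase, had 60.4 and 80.5 in Stk40 KO, against 33.7 and 34.6 in WT, and Mfi2, the iron-binding melanotransferrin, had 21.3 and 2.73 in Stk40 KO, against 7.82 and 2.91 in WT. Of copper transport 3 of 19 genes are named, Cp, Steap4 and Mtf1. Mtf1, a metal-sensing transcription factor, had 0.45 and 10 in Stk40 KO, against 18 and 8.09 in WT. Of haem and haemoglobin scavenging 2 of 11 genes are named, Hp and Cd163. Cd163, the macrophage receptor that takes up complexes of haptoglobin with haemoglobin, had 21.5 and 13.7 in Stk40 KO, against 1.82 and 0.73 in WT. No fold is given for these genes, since both genotypes lay under the noise level.

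**Figure D4:**
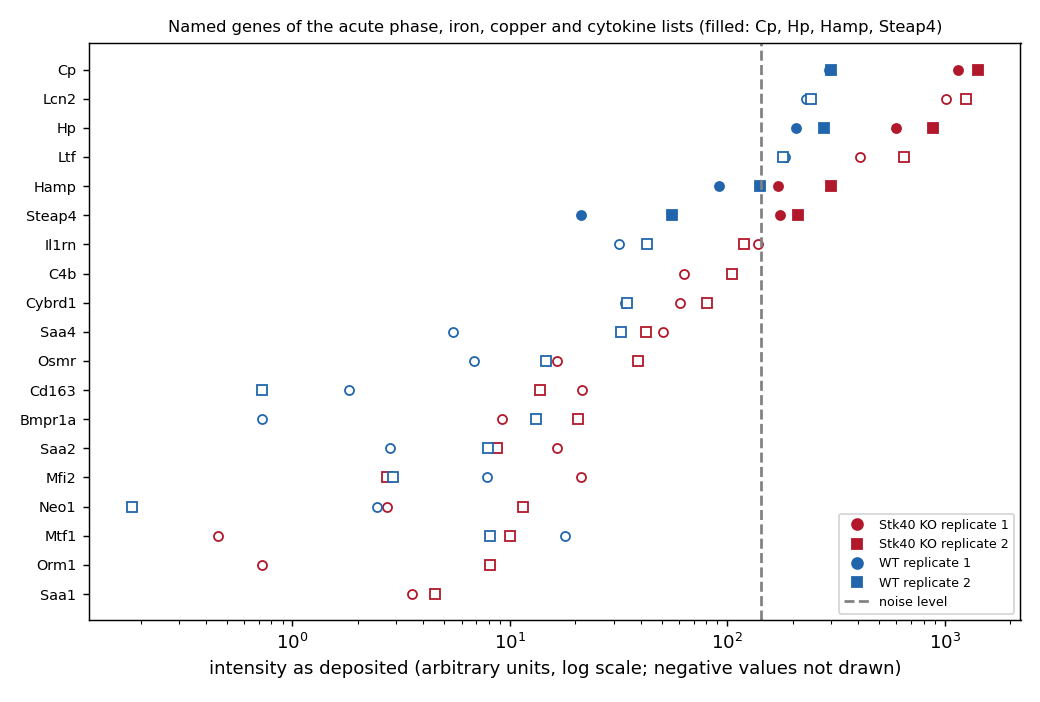
Intensity as deposited (horizontal axis, arbitrary units, log scale, negative values not drawn) of Cp, Hp, Hamp and Steap4 (filled) and of the 15 other named genes of the 6 lists (open) on the 2 Stk40 KO arrays (red) and the 2 WT arrays (blue). Lcn2 and Ltf alone among the open symbols lie beyond the noise level of 143, and the brightness of different genes cannot be compared on this scale.

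The markers of 5 cell types could be read only where the deposited table names them, which requires a 2-fold change, so the counts below do not describe the lists as wholes. Of 24 neutrophil markers 8 are named, 8 up by the fold rule as deposited and 6 after scaling, with summed intensities of 5228 and 7311 in the Stk40 KO pools, against 2232 and 2317 in the WT pools. The 5 that could be tested were Ngp, Camp, Stfa3, Lcn2 and Ltf, and 5 of 5 were called higher by limma after scaling, beside 1.25% of all tested probe sets, in the contrast through which they are named. Every tested marker of the other cell types below was called higher too, so the calls do not set neutrophil genes apart. Replicate 2 over replicate 1 was 1.25 to 1.61 for the 5 neutrophil genes between the Stk40 KO pools and 0.79 to 0.95 between the WT pools. The ratio between the Stk40 KO pools was also above 1 for genes of other cell types named below, at 1.38 for Cps1 and 1.26 for Col1a1, and was 0.91 for Cyp3a11. Hp and Steap4 are known to be expressed by myeloid cells as well as by hepatocytes. The defining genes Mpo, Elane, S100a8 and S100a9 are not named in the table. Of 28 hepatocyte markers 4 are named and 2 could be tested, with sums of 1884 and 2244 in the Stk40 KO pools, against 252 and 256 in the WT pools. Among them Cps1, the first enzyme of the urea cycle, had 1208 and 1646 in Stk40 KO, against 103 and 108 in WT. Cyp3a11, a cytochrome P450, had 654 and 585 in Stk40 KO, against 148 and 140 in WT. Both WT values of Cps1 and that of Cyp3a11 in WT replicate 2 lay under the noise level, so the WT sums rest on values near or under it. Alb, Afp and Ttr, which define hepatocytes, are not named and could not be used to check the tissue.
Of 19 markers of macrophages and Kupffer cells 3 are named and 1 could be tested, with sums of 1925 and 1934 in Stk40 KO, against 802 and 963 in WT, among them Lyz2, the lysozyme of myeloid cells. Of 18 endothelial and stellate cell markers 3 are named and 1 could be tested, with sums of 559 and 668 in Stk40 KO, against 274 and 288 in WT, among them Col1a1, a collagen chain. Of 21 erythroid markers 0 are named. The part of these cell types in the differences of Cp, Hp, Hamp and Steap4 was not tested.

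The named genes nearest in pattern were found over the 4 arrays, by the Euclidean distance between log2 values centred on each probe set's own mean and the mean of the 4 genes, among 68 other named probe sets bright enough to be tested. The nearest were 1100001G20Rik (distance 0.054), Camp, an antimicrobial peptide of neutrophils (0.084), Slc13a3, a transporter of dicarboxylates (0.095), Stfa3, a stefin of neutrophils (0.16), and Anxa1, an annexin (0.17). 1100001G20Rik had 263 and 387 in Stk40 KO, against 124 and 136 in WT, and Slc13a3 had 343 and 443 in Stk40 KO, against 151 and 184 in WT. Like the 4 genes, they lay higher on Stk40 KO replicate 2 than on Stk40 KO replicate 1, which follows from matching them to that pattern. After scaling, 67.4% of all tested probe sets did so. With 4 arrays and a pool of genes already chosen for a 2-fold change, such nearness is a description.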

How the data were processed

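Total RNA of E14.5 fetal livers, pooled from 6 livers per array, was hybridized to Affymetrix mouse 430 2.0 arrays, 2 for Stk40 KO and 2 for WT. Genotypes and replicate numbers were taken from the labels. Deposited by the authors was a linear intensity of every probe set on every array. MAS5 is named in the submitters' processing notes, and its version is not given in the sources used here. On an array 21.0% to 23.2% of the probe sets were negative, so the values are not called MAS5 signals here. The values are mostly (99.9%) multiples of 1/11 within 0.001 and their 75th percentiles differ between arrays, so they had not been scaled. A table deposited by the authors holds the 2-fold changes, with intensities raised to at least 0.1, group means, the fold as a ratio and gene symbols. Its symbols supplied every gene name, and its means and ratio (the authors' comparison) were not used. Of the 1345 symbols, 1197 were found in the RefSeq gene table of GRCm38.p6, 135 of them by a synonym.

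Arrays were scaled to equal 75th percentiles of positive values. Intensities under the noise level of 143 were raised to it, log2 values were compared, and a fold was called a lower bound where both WT arrays lay under that level. Across 12332 probe sets above the level on at least 2 arrays, limma 3.58.1 in R 4.3.3 (lmFit, eBayes with trend) was fitted, with Benjamini-Hochberg adjustment at 0.05. It was tested on simulated data. The fold rule of the study's methods was applied to the intensities as deposited: probe sets negative on 4 arrays, or of opposite sign within a genotype, were left out, values under 0.1 were raised to 0.1, and probe sets whose linear means gave a ratio of 2 or more, or 0.5 or less, were counted. A further step of those methods, which removes genes found in both the increased and the decreased list, was not applied. The deposited table holds 1467 probe sets, against 1242 up and 511 down by the rule as applied here. A probe set can thus pass the rule and have no name. Control probe sets were left out of tests and counts. Alternatives covered the scaling, the floor, the filter, the trend of the prior, a block for the replicate number and each array left out. Motifs were searched in RefSeq promoter windows with Biopython 1.88.

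Named are the 4 genes, Stk40, up to 4 members of a list by mean intensity, and the 5 nearest in pattern. Further list members were added after their values were seen. The members, the lists and the motifs were chosen with earlier results of these data known. The number of arrays limits the precision. The spread behind the p-values is that between 2 pools per genotype. With an array left out, it is that between the 2 pools of the other genotype. In the main fit limma drew it toward a trend over all tested probe sets, with 6.33 prior degrees of freedom. As deposited, and without either WT replicate, these were infinite, so that only the trend entered. Where both WT values were raised to the noise level, their spread was lost.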

Additional observations from a re-analysis of the deposited data

How the results depend on the processing

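No log2 fold of the 8 probe sets changed sign, but all 8 were chosen for a 2-fold ratio on these same arrays, so no support is drawn from that. For Hamp, Steap4 and the Cp probe sets 1455393_at and 1417496_at it also follows from the noise floor, in the settings that use it. Both of their WT values are then raised to that floor, and leaving out a WT array cannot move their fold. The scaled log2 fold of Cp (1417494_a_at) was 1.88, and 2.12 both on intensities as deposited and by the fold rule. Leaving out 1 array gave 1.72 to 2.04 for Cp, 1.06 to 1.64 for Hp, 0.14 to 0.96 for Hamp and 0.16 to 0.46 for Steap4. The log2 fold of Hamp was 0.55, and 1.02 by the fold rule. That of Steap4 was 0.31, and 2.25 with the floor at 15.1 or 2.33 by the fold rule, because the lower floors keep its dim WT values. Of the 8 probe sets, limma called 6, and 3, of Cp, with the filter at 1 array, and leaving out 1 array gave 4 (without either Stk40 KO replicate) to 7 (without either WT replicate), in fits where 1 genotype has a lone array that is assumed to vary like the arrays of the other. By the fold rule 8 passed, 5 once intensities were raised to the noise level, and 7 to 8 without 1 array, Hamp being lost without Stk40 KO replicate 2 and without WT replicate 1.
Over all probe sets, limma called 154 higher and 85 lower in Stk40 KO, against 284 and 11 as deposited, 238 and 160 with the lower floor and 22 and 10 with the filter at 1 array. It called 47 lower with spiked controls and 55 lower without a trend. Leaving out 1 array gave 95 to 440 higher and 115 to 292 lower. The fold rule counted 1242 up and 511 down as deposited (split 70.8% up), against 814 and 723 with equal 75th percentiles (53.0% up), 785 and 779 by quantile normalization, 825 up with spiked controls, 40 and 8 with intensities raised to the noise level, 496 and 322 past 3-fold, and 1387 to 3928 up and 1074 to 1569 down without 1 array. The cause was not tested.
By the labels, same-numbered arrays share a number, and whether they share anything else is not stated. Their deviations correlated at 0.24, and with the replicate number as a block limma called 811 higher and 1209 lower, and 8 of the 8 probe sets. The fit with no filter on low values could not be made. Only 2 arrays per genotype and WT values under the noise level for 5 of the 8 probe sets limit what can be read from Hamp, Steap4 and the dimmer readings of Cp.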
